A study of Homo sapiens with 10 samples.

Results

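The genes described here are 10 immediate early transcription factors: the JUN family (JUN, JUNB and JUND), the FOS family (FOS, FOSB, FOSL1 and FOSL2) and 3 EGR genes (EGR1, EGR2 and EGR3). They were taken by gene symbol as members of these families, and all 10 had a row in both expression tables, among 23416 genes of the siRNA table and 23426 genes of the other, the miRNA table. Poly(A) RNA came from SH-SY5Y, an established human neuroblastoma cell line, grown with serum and harvested 72 h after treatment. The siRNA table held 3 libraries of cells given 100 nM of siRNA against the primate long non-coding RNA LncND and 3 of cells given a scrambled siRNA. The miRNA table held 2 libraries of cells given 50 nM of a miR-143-3p mimic and 2 of cells given a scrambled miRNA. The doses of the scrambled RNAs were not stated separately, and LncND's own level was not analysed here. Nothing in the labels says that replicates were separate cultures, so the spread behind the p-values may be technical.

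Immediate early genes are switched on within minutes of a stimulus, without new protein synthesis, when kinases of the ERK, JNK and p38 families activate factors such as SRF, ELK1 and CREB already bound at their promoters. JUN proteins pair with each other or with FOS proteins to form AP-1, which binds TGANTCA sites, whereas FOS proteins need a JUN partner. EGR proteins are zinc finger factors that bind GC-rich sites and are held back by the corepressors NAB1 and NAB2. In neurons and neuroblastoma cells these genes are best known as fast reporters of growth factor and synaptic signals. The cells here were sampled days after treatment.

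Libraries were similar in makeup apart from 1, while depth could only be estimated. Estimated depth, read from the steps between the lowest values, was 25.4 to 44.0 M fragments, although 13.8 M and 14.2 M were also possible for miR-143-3p mimic replicate 2 and scrambled miRNA replicate 1. LncND siRNA replicate 1 stood apart, with the Y RNA gene RNY4 at 1224670 FPKM and a table sum of 1678230 FPKM, against 428238 to 478709 in the other libraries. Summed over genes of 300 bp or longer it had 432314 FPKM, within the 405607 to 447764 of the others, and without it every JUN, FOS and EGR call with LncND siRNA stood. Noradrenergic markers were expressed, with 9 of 10 at 1 FPKM or more. Mesenchymal (S-type) neuroblastoma markers were present too, with 6 of 10 at 1 FPKM or more in the siRNA table and 5 of 10 in the miRNA table. Their levels were uneven, and VIM was the highest, with 286.6 FPKM in scrambled siRNA and 398.5 FPKM in scrambled miRNA cells. In the same order TWIST1 had 141.4 and 105.8 FPKM, FN1 23.4 and 14.1, COL1A1 4.2 and 4.0, and YAP1 3.6 and 3.8. SNAI2 had 1.87 FPKM in scrambled siRNA cells. Of these 10 markers, 3 were listed at 0 in every siRNA library, and 3 of the 10 in every miRNA library. Few genes of the other cell types looked at reached 1 FPKM. They were S100B of 8 Schwann and glial markers (1 in either table), and in the siRNA table only, CD68 of 8 endothelial and blood markers and CLDN4 of 7 epithelial markers.

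Values are FPKM, which divide a gene's fragments by its length and by the library's mapped fragments, so levels can be compared between genes. The order of the genes was steep. JUND was highest in every group, followed by JUNB, JUN and EGR1, and the other 6 genes were at most 2.03 FPKM in any library. In LncND siRNA cells the means were 38.2 ± 3.33 FPKM for JUND, 22.6 ± 0.774 for JUNB, 14.1 ± 0.449 for JUN and 4.74 ± 0.261 for EGR1 (SD, n = 3). In scrambled siRNA cells they were 32.4 ± 1.46 for JUND, 15.6 ± 0.381 for JUNB, 14.7 ± 0.863 for JUN and 5.04 ± 0.572 for EGR1 (SD, n = 3). There JUNB and JUN lay close together, with JUNB libraries at 15.3 to 16.0 FPKM and JUN libraries at 14.1 to 15.7 FPKM, which overlap. Below EGR1 came FOS, FOSL1 and FOSL2, whose neighbouring ranges overlapped in scrambled siRNA cells, and then EGR2, EGR3 and FOSB. FOSB stood lowest in both siRNA groups, at 0.0322 to 0.0644 FPKM in LncND siRNA and 0.0410 to 0.0673 FPKM in scrambled siRNA cells, which is about 5.17 to 7.07 fragments a library.

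**Figure D1:**
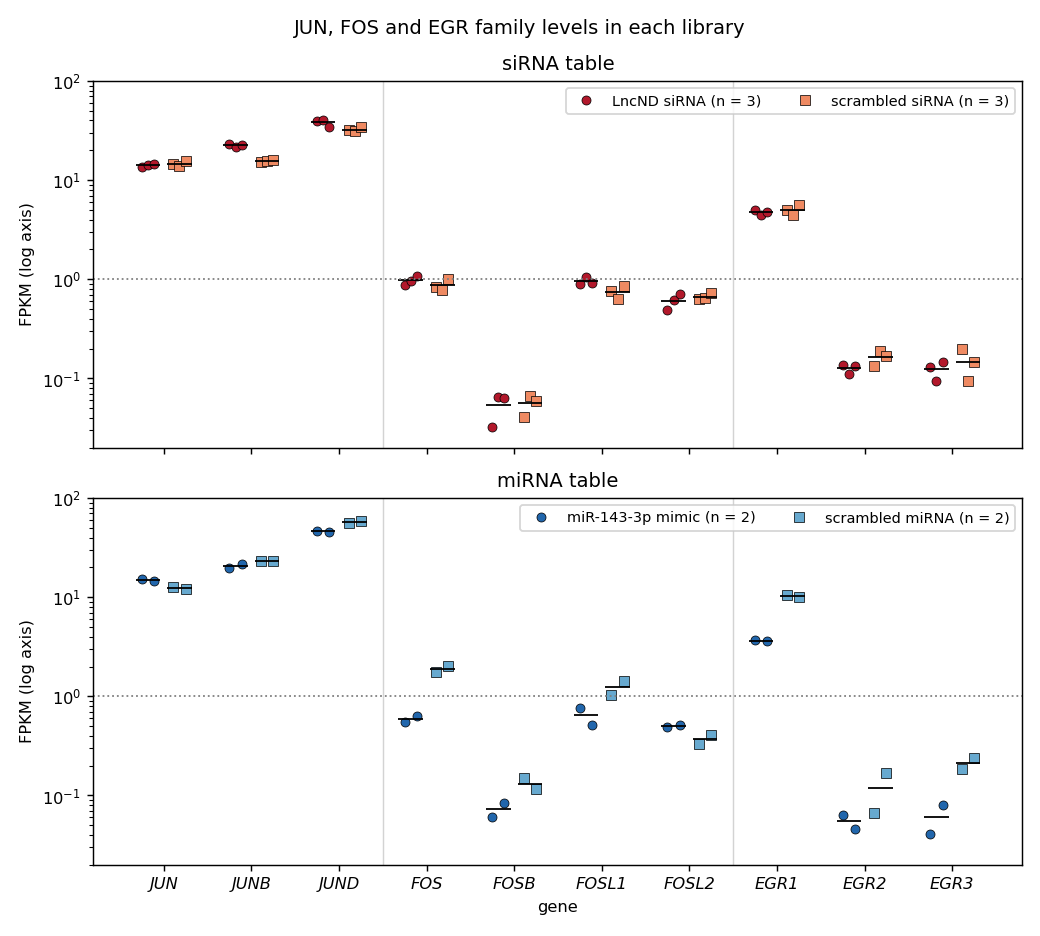
FPKM on a log axis of the 10 genes in each library, with LncND siRNA (circles) left of scrambled siRNA (squares) above, and miR-143-3p mimic left of scrambled miRNA below; horizontal bars are group means and the dotted line is 1 FPKM. EGR1 and FOS of the mimic libraries lie well under those of the scrambled miRNA libraries, and JUNB is the JUN family gene with the widest gap between the siRNA groups.

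Tests were run with limma on log2(FPKM + 1) where a gene averaged 1 FPKM or more in a table, with a Benjamini-Hochberg adjusted p under 0.05 as the threshold, and each log2 fold change below is on that scale, which understates the change of low genes. With LncND siRNA 4 of the 10 genes were tested (JUN, JUNB, JUND and EGR1), and 2 passed, both higher. Over all 12601 genes tested 66.9% passed, 36.6% higher and 30.3% lower, so the share of these genes is not above the background. The lower calls were the more numerous after rescaling, with 3961 higher and 4498 lower after median-ratio scaling and 4028 higher and 4655 lower after quantile normalization, against 4613 higher and 3818 lower as deposited. With the miR-143-3p mimic 5 were tested (the same 4 and FOS), and 5 passed, 1 higher and 4 lower, against 63.3% of 12558 genes, 24.6% higher and 38.6% lower. FOS was tested only because of its level in scrambled miRNA cells, so that count is given as a description. With no filter on low values all 10 genes entered, and 1 passed with LncND siRNA (JUNB), against 36.5% of 23416 genes, and 3 passed with the mimic (EGR1, FOS and JUND), against 22.7% of 23426 genes. The median log2 fold change over all genes tested was 0.02 with LncND siRNA and -0.06 with the mimic. In bulk RNA, fewer cells of a type and less RNA per cell cannot be told apart.

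JUNB and JUND were the JUN family genes that rose with LncND siRNA. JUNB (hg19 chr19:12902309-12904125) encodes a JUN protein that is a weaker activator than JUN and can oppose it. Its level was 23.4, 21.8 and 22.6 FPKM in LncND siRNA libraries, against 15.3, 15.5 and 16.0 FPKM in scrambled siRNA libraries. The groups were well apart, with the lowest LncND siRNA library above the highest scrambled siRNA library. That is 1.45-fold, a log2 fold change of 0.51 ± 0.039 (SE; limma, adjusted p = 1.96e-06), with a 95% interval of 0.42 to 0.60. Of all genes tested 10.5% rose further. JUND (hg19 chr19:18390562-18392432), the JUN protein of resting cells, had 39.3, 40.8 and 34.4 FPKM in LncND siRNA libraries, against 32.0, 31.2 and 34.0 FPKM in scrambled siRNA libraries. The groups did not overlap, but LncND siRNA replicate 3 was close to the highest scrambled siRNA library. Its log2 fold change was 0.23 ± 0.061 (SE; limma, adjusted p = 0.00739), and 26.0% of genes rose further. With no filter on low values JUND no longer passed (adjusted p = 0.0763).

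JUN did not pass with LncND siRNA. JUN (hg19 chr1:59246462-59249785), the founding AP-1 subunit and the JNK substrate, had 13.6, 14.3 and 14.4 FPKM in LncND siRNA libraries, against 14.4, 14.1 and 15.7 FPKM in scrambled siRNA libraries. The groups overlapped, and the log2 fold change was -0.06 ± 0.047 (SE; limma, adjusted p = 0.297), with a 95% interval of -0.16 to 0.05. The 3 genes together summed to 71.5 to 76.9 FPKM in LncND siRNA libraries and 60.7 to 65.7 FPKM in scrambled siRNA libraries. The JUNB to JUN ratio was 1.53 to 1.72 in LncND siRNA libraries and 1.02 to 1.10 in scrambled siRNA libraries, as a description without a test. JUND made up 48.2 to 53.1% of the summed JUN family FPKM in LncND siRNA libraries and 51.3 to 51.9% in scrambled siRNA libraries.

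With the mimic the JUN family moved in mixed directions. JUN had 15.4 and 14.5 FPKM in mimic libraries, against 12.7 and 12.1 FPKM in scrambled miRNA libraries. Both mimic libraries were above both scrambled miRNA libraries, and JUN rose, with a log2 fold change of 0.26 ± 0.056 (SE; limma, adjusted p = 0.00268), or 1.21-fold. With no filter on low values it no longer passed (adjusted p = 0.0609). JUND had 46.3 and 45.7 FPKM in mimic libraries, against 55.9 and 58.2 FPKM in scrambled miRNA libraries. The groups were apart, and JUND fell, with a log2 fold change of -0.30 ± 0.043 (SE; limma, adjusted p = 0.000201).

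JUNB fell with the mimic in the fit reported, and 6 alternatives ended the call. It had 19.9 and 21.5 FPKM in mimic libraries, against 23.4 and 23.3 FPKM in scrambled miRNA libraries. The groups did not overlap, and the log2 fold change was -0.17 ± 0.052 (SE; limma, adjusted p = 0.0179). It did not pass after median-ratio scaling (-0.10, adjusted p = 0.116), quantile normalization (-0.10, adjusted p = 0.123) or with no filter on low values (adjusted p = 0.125). It also did not pass without miR-143-3p mimic replicate 1 (-0.11, adjusted p = 0.101), without scrambled miRNA replicate 1 (-0.16, adjusted p = 0.076) or without scrambled miRNA replicate 2 (-0.17, adjusted p = 0.0645). Together the JUN family summed to 81.6 to 81.8 FPKM in mimic libraries and 92.0 to 93.5 FPKM in scrambled miRNA libraries.

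**Figure D2:**
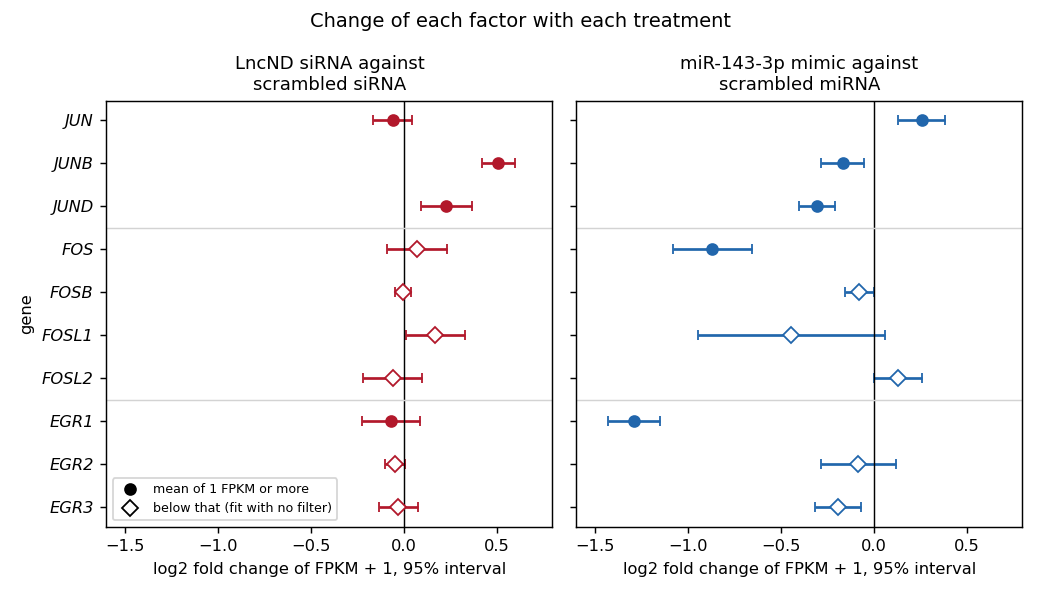
Log2 fold change of FPKM + 1, with its 95% interval, for each gene with LncND siRNA against scrambled siRNA (left) and with the miR-143-3p mimic against scrambled miRNA (right); filled circles were tested and open diamonds, below a mean of 1 FPKM, come from the fit with no filter. JUNB at 0.51 is the furthest from 0 on the left, and EGR1 at -1.29 and FOS at -0.87 on the right.

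FOS fell with the mimic. FOS (hg19 chr14:75745480-75748937) is the partner of JUN in the classical AP-1 dimer. It had 0.551 and 0.628 FPKM in mimic libraries, against 1.77 and 2.03 FPKM in scrambled miRNA libraries. The groups were far apart for so low a gene, resting on about 32.3 and 37.6 fragments in the mimic libraries (18.7 for replicate 2 at its lower depth) and 108 and 164 in the scrambled miRNA libraries (54.4 for replicate 1 at its lower depth). FPKM was 3.23-fold lower in mimic cells, and the log2 fold change was -0.87, or -1.54 with a pseudocount of 0.1. Since FOS met the filter only through the scrambled miRNA libraries, the fit with no filter is the one to read, where it passed (limma, adjusted p = 0.0196). With the filter the adjusted p was 3.56e-05. With LncND siRNA, FOS had 0.876, 0.963 and 1.08 FPKM, against 0.843, 0.785 and 1.01 FPKM with scrambled siRNA, which overlap. Its mean there was 0.926 FPKM, just under the filter, and without a filter its log2 fold change was 0.07 (limma, adjusted p = 0.511).

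The other FOS genes stayed below the filter in both tables. FOSL1 (FRA1; hg19 chr11:65659691-65667997), a FOS protein linked to migration and invasion, had 0.899, 1.06 and 0.922 FPKM in LncND siRNA libraries, against 0.756, 0.629 and 0.852 FPKM in scrambled siRNA libraries. The groups did not overlap, and without a filter the log2 fold change was 0.17 (limma, adjusted p = 0.0994). With the mimic FOSL1 had 0.771 and 0.515 FPKM, against 1.04 and 1.43 FPKM with scrambled miRNA. The mimic libraries were the lower ones, with a log2 fold change of -0.44 (limma, adjusted p = 0.166, no filter) and an interval of -0.95 to 0.06. FOSL2 (FRA2; hg19 chr2:28615778-28637516), a FOS protein of slower kinetics, had 0.487 and 0.513 FPKM in mimic libraries, against 0.333 and 0.412 FPKM in scrambled miRNA libraries. Here the mimic libraries were the higher ones, with a log2 fold change of 0.13 (limma, adjusted p = 0.137, no filter). FOSL2 overlapped between LncND siRNA (0.486 to 0.713 FPKM) and scrambled siRNA (0.626 to 0.730 FPKM), with an adjusted p of 0.555 in limma without a filter.

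FOSB (hg19 chr19:45971252-45978437), whose truncated form builds up in chronically stimulated neurons, had 0.0610 and 0.0849 FPKM in mimic libraries, against 0.149 and 0.115 FPKM in scrambled miRNA libraries. These values rest on at most 16.2 fragments a library, and the log2 fold change was -0.08 (limma, adjusted p = 0.143, no filter). With LncND siRNA its groups overlapped. Within the FOS family, FOS itself made up 29.5 to 36.0% of the summed FPKM in mimic libraries and 51.0 to 53.8% in scrambled miRNA libraries. The family summed to 1.74 to 1.87 FPKM in mimic libraries and 3.30 to 3.99 FPKM in scrambled miRNA libraries. In the siRNA table it summed to 2.29 to 2.78 FPKM in LncND siRNA libraries and 2.14 to 2.65 FPKM in scrambled siRNA libraries, which overlap. The summed JUN family exceeded the summed FOS family 43.7 to 47.0-fold in mimic libraries and 23.4 to 27.9-fold in scrambled miRNA libraries, again with no test.

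**Figure D3:**
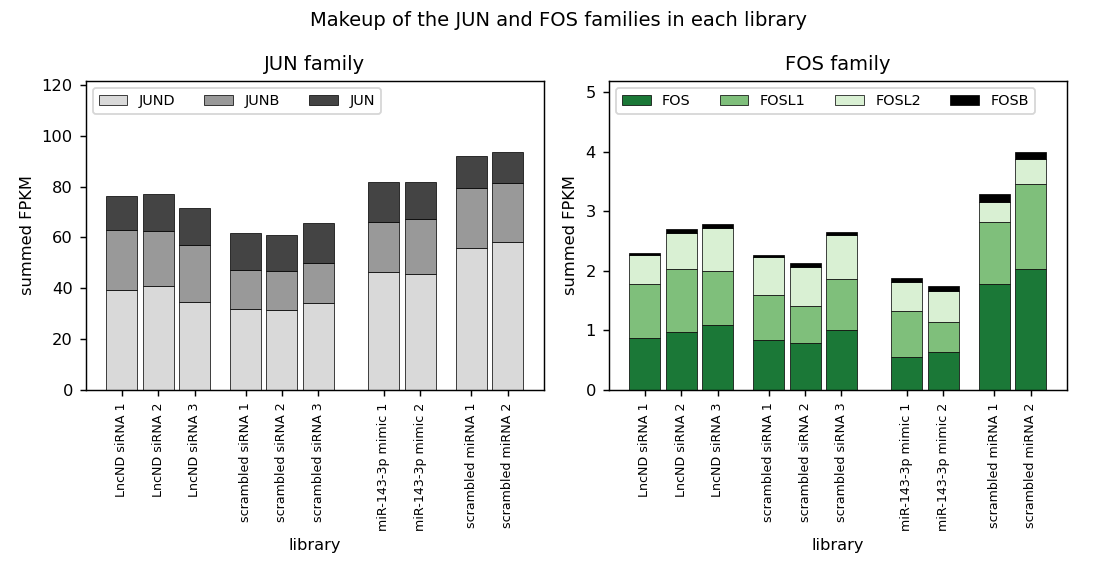
Summed FPKM of the JUN family (left) and FOS family (right) in each library, stacked by gene, with treated libraries left of their scrambled controls. The FOS family sums to 1.74 to 1.87 FPKM in mimic libraries and 3.30 to 3.99 FPKM in scrambled miRNA libraries, and the 2 tables were made separately, so levels are to be read within a table.

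On the log2(FPKM + 1) scale EGR1 fell furthest of the 10 genes with the mimic. EGR1 (hg19 chr5:137801180-137805004), a zinc finger activator induced by ERK signalling, had 3.69 and 3.59 FPKM in mimic libraries, against 10.5 and 10.1 FPKM in scrambled miRNA libraries. Replicates were tight and the groups far apart. FPKM was 2.84-fold lower in mimic cells, with a log2 fold change of -1.29 ± 0.062 (SE; limma, adjusted p = 2.58e-07) and a 95% interval of -1.43 to -1.15. Only 91 of 12558 genes, 0.725%, fell further. It passed under every alternative run, at -1.48 to -1.22. With LncND siRNA EGR1 had 4.98, 4.46 and 4.79 FPKM, against 5.03, 4.47 and 5.61 FPKM with scrambled siRNA. Those groups overlapped, and the log2 fold change of -0.07 ± 0.070 did not pass (limma, adjusted p = 0.407), with a 95% interval of -0.22 to 0.09. The scrambled controls themselves differed in level between the separately made tables, with EGR1 at 10.3 ± 0.302 FPKM in scrambled miRNA (SD, n = 2) and 5.04 ± 0.572 FPKM in scrambled siRNA cells (SD, n = 3). FOS was likewise at 1.90 ± 0.184 FPKM in scrambled miRNA and 0.879 ± 0.117 FPKM in scrambled siRNA cells, and these levels were not tested across tables.

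The promoter of EGR1 is shown because EGR1 fell furthest on that scale and its promoter is a classical target of SRF. RefSeq promoter windows, from 250 bases before to 50 bases after a start site on GRCh38.p14, matched 8 of the 10 genes. Motifs searched on both strands were the CArG box of SRF, the AP-1 site TGANTCA, the CRE-type site TGACGTCA and the EGR site GCGNGGGCG. The EGR1 window, chr5:138465229-138465528 on the plus strand, holds CArG boxes starting at -105 and -83 and an EGR site at -198, all in capitals.
EGR1 promoter: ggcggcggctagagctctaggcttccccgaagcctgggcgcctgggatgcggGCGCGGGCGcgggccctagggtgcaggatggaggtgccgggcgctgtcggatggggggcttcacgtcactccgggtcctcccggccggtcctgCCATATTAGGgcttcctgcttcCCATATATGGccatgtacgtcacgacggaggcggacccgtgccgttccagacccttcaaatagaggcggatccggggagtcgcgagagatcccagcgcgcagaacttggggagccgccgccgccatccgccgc
Over 35116 windows 1.29% hold a CArG box, 7.71% TGANTCA, 1.85% TGACGTCA and 9.43% GCGNGGGCG. Of 3 EGR2 windows, 1 has a CArG box at -71 and another an EGR site at 9. JUND has TGACGTCA at -200 and FOSL2 has TGANTCA at 5. The windows of FOS, FOSB, JUN and JUNB hold none of the 4 motifs, which says only that these letters are not in them.

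The mimic is named for miR-143-3p, whose sequence is shown because its seed (bases 2 to 8, in capitals) defines the sites it can pair with. RefSeq places the mature sequence at chr5:149428978-149428998 on the plus strand of GRCh38.p14.
miR-143-3p: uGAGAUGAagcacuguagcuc
The reverse complement of the seed, TCATCTC, or of bases 2 to 7 followed by A (CATCTCA), was searched in the 3′ UTR of 1 GENCODE 29 transcript per gene. It stood in 4 of the 10 genes, EGR1, FOSB, FOSL1 and FOSL2, and not in the searched UTRs of FOS, JUN, JUNB, JUND, EGR2 and EGR3. Over 11190 genes tested with the mimic that had a UTR, 24.8% held such a match, and their median log2 fold change was -0.12, against -0.05 for genes without. That share covers tested genes only, whereas the 4 of 10 include genes below the filter, so the 2 are not comparable. The sites below are printed on the strand of the transcript, with the match in capitals and GRCh38 positions of the match.
EGR1, chr5:138468381-138468387, plus strand: tcatttcagtaTCATCTCcatcatatgcc
FOSB, chr19:45474392-45474399, plus strand: ttccctgcgctTCATCTCAtgaggatttct
FOSL1, chr11:65892057-65892063, minus strand: tccgctcggccTCATCTCcgggactg
FOSL2, chr2:28414577-28414584, plus strand: cacaggggtaaTCATCTCAagtggtatttg
FOSL2 held 1 more match to the seed and 2 to CATCTCA. Of the 4 genes with a match only EGR1 reached the filter, and it fell with the mimic. FOSB and FOSL1 had lower values and FOSL2 had higher values in both mimic libraries than in both scrambled miRNA libraries, and none of these 3 passed. With 2 libraries a group such separation alone says little, and its share over all genes was not worked out. A match is a description of letters and not of binding.

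EGR2 and EGR3 were close to the detection limit. EGR2 (hg19 chr10:64571755-64578927), a factor of Schwann cell myelination and hindbrain patterning, had 0.0638 and 0.0464 FPKM in mimic libraries, against 0.0660 and 0.169 FPKM in scrambled miRNA libraries. The mimic libraries lay below, by little for scrambled miRNA replicate 1, and the log2 fold change was -0.08 (limma, adjusted p = 0.494, no filter). EGR3 (hg19 chr8:22545173-22550815), a factor of muscle spindle development, had 0.0408 and 0.0795 FPKM in mimic libraries, against 0.185 and 0.240 FPKM in scrambled miRNA libraries. The groups were apart on about 4.81 to 38.9 fragments a library, with a log2 fold change of -0.19 (limma, adjusted p = 0.0646, no filter). With LncND siRNA both overlapped with scrambled siRNA, EGR2 at 0.110 to 0.136 FPKM with LncND siRNA against 0.135 to 0.190 FPKM with scrambled siRNA, and EGR3 at 0.0932 to 0.146 FPKM with LncND siRNA against 0.0945 to 0.199 FPKM with scrambled siRNA. Neither passed in limma without a filter (adjusted p = 0.163 for EGR2 and 0.699 for EGR3). EGR1 made up 93.8 to 97.7% of the summed EGR FPKM over the 10 libraries.

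The effects of the 2 treatments differed for the JUN family and EGR1. The LncND siRNA effect minus the mimic effect, tested in 1 limma fit of all 10 libraries, was 1.22 ± 0.101 for EGR1 (SE; adjusted p = 3.62e-07), 0.68 ± 0.064 for JUNB (adjusted p = 1.17e-06), 0.53 ± 0.087 for JUND (adjusted p = 0.000155) and -0.32 ± 0.074 for JUN (adjusted p = 0.00252) on the log2 scale. All 4 genes tested in both tables passed, against 60.2% of 12327 genes. JUNB and JUND were higher with LncND siRNA and lower with the mimic, while JUN was higher with the mimic. The treatments differ in agent, dose and control, and the comparisons share no library.

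The other genes of the pathway were taken from lists. Of 37 other early response genes 27 were tested with LncND siRNA, and 15 rose, 6 fell and 6 missed the threshold, against 36.6% higher and 30.3% lower of all genes. The list median was 0.20, against 0.02 over all genes. PLK2, a polo-like kinase, rose to 24.3 ± 1.38 FPKM in LncND siRNA cells, against 6.45 ± 0.212 in scrambled siRNA cells (log2 fold change 1.76; SD, n = 3 each). BTG2, an antiproliferative factor, had 50.4 ± 1.53 FPKM in LncND siRNA and 16.4 ± 0.249 FPKM in scrambled siRNA cells (1.57). RHOB, a small GTPase, had 45.1 ± 2.16 FPKM in LncND siRNA and 15.9 ± 0.161 FPKM in scrambled siRNA cells (1.45). PLK2 and BTG2 are also known p53 targets. With the mimic 28 were tested, and 9 rose, 15 fell and 4 missed the threshold, against 24.6% higher and 38.6% lower of all genes. The list median was -0.30, against -0.06 over all genes. RHOB rose again, to 51.6 ± 0.0718 FPKM in mimic cells, against 15.0 ± 0.279 FPKM in scrambled miRNA cells (1.72; SD, n = 2 each). CYR61, a secreted matricellular protein, fell to 1.26 ± 0.0785 FPKM in mimic cells, against 4.56 ± 0.0621 FPKM in scrambled miRNA cells (-1.30), and BTG2 fell to 15.2 ± 0.503 FPKM in mimic cells, against 30.5 ± 0.0451 FPKM in scrambled miRNA cells (-0.96).

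**Figure D4:**
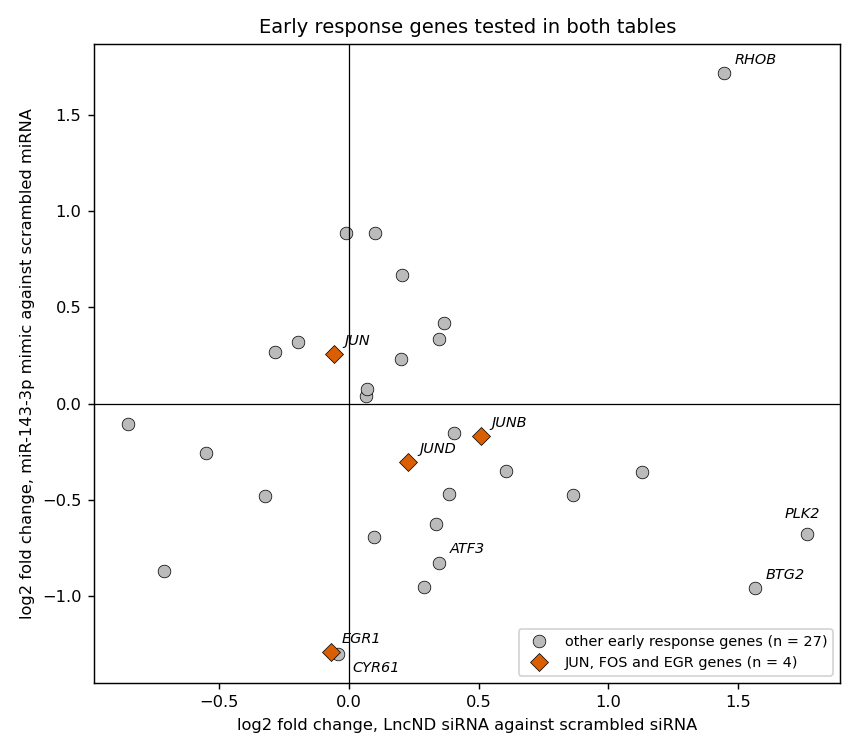
Log2 fold change with LncND siRNA (x axis) and with the miR-143-3p mimic (y axis) of 27 other early response genes (grey circles) and of JUN, JUNB, JUND and EGR1 (orange diamonds), all tested in both tables. RHOB lies high on both axes, BTG2 and PLK2 lie right and low, and CYR61 lies beside EGR1 near 0 on the x axis and at -1.30 on the y axis.

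Genes with the most similar pattern over the 10 libraries were looked for among 12323 genes, by the mean absolute difference in log2(FPKM + 1) from the mean of the table's control libraries. For EGR1 the nearest was CYR61 (0.04) and then SPA17 (0.05). SPA17 had 9.74 FPKM in mimic cells and 24.3 FPKM in scrambled miRNA cells. For FOS they were SGCB (0.05) and DCTD (0.06). SGCB had 12.8 FPKM in mimic and 23.2 FPKM in scrambled miRNA cells, and DCTD had 9.95 FPKM in mimic and 19.4 FPKM in scrambled miRNA cells. In FPKM both fell less than FOS, which was 3.23-fold lower in mimic cells, since log2(FPKM + 1) understates low genes. For JUNB they were GRINA and PPCS (0.03 each). GRINA had 73.4 FPKM in LncND siRNA and 51.1 FPKM in scrambled siRNA cells.

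Of 17 dimer partners and relatives of FOS and JUN, 12 were tested with LncND siRNA, and 7 rose, 3 fell and 2 missed the threshold, against 36.6% higher and 30.3% lower of all genes (list median 0.27, all genes 0.02). JDP2, a repressor that pairs with JUN, had 2.89 ± 0.135 FPKM in LncND siRNA and 1.57 ± 0.157 FPKM in scrambled siRNA cells (log2 fold change 0.60), and MAFK (0.54) rose as well. With the mimic 11 were tested, and 3 rose, 6 fell and 2 missed the threshold, against 24.6% higher and 38.6% lower of all genes (list median -0.11, and 0.02 after quantile normalization, all genes -0.06). The 6 lower calls became 3 without miR-143-3p mimic replicate 2, 3 without scrambled miRNA replicate 1 and 3 with no filter, and the 3 higher calls became 1 with no filter. ATF3, a stress-induced repressor that pairs with JUN, fell to 5.25 ± 0.258 FPKM in mimic cells, against 10.1 ± 0.309 FPKM in scrambled miRNA cells (-0.82), and ATF1 (-0.69) and CREM (-0.51) fell too. ATF3 is also on the list of early response genes.

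Upstream factors and kinases, 22 genes, were all tested. With LncND siRNA 4 rose, 11 fell and 7 did not pass (list median -0.08), against 36.6% higher and 30.3% lower of all genes. MAPK10, the neuronal JNK3, had 6.59 ± 0.412 FPKM in LncND siRNA and 2.77 ± 0.0894 FPKM in scrambled siRNA cells (log2 fold change 1.01), whereas the ETS factor ELK3 (-0.73) and the SRF coactivator MKL2 (-0.57) fell. With the mimic 7 rose, 8 fell and 7 did not pass (list median -0.04, and 0.03 after either scaling), against 24.6% higher and 38.6% lower of all genes. The 7 higher calls became 3 without scrambled miRNA replicate 1, 4 without miR-143-3p mimic replicate 1 and 3 with no filter. After either scaling they became 9. MAPK3, the kinase ERK1, fell to 17.2 ± 1.40 FPKM in mimic cells, against 36.5 ± 0.717 FPKM in scrambled miRNA cells (-1.05). ELK3 fell to 9.61 ± 0.0240 FPKM in mimic cells, against 17.1 ± 1.05 FPKM in scrambled miRNA cells (-0.77). MAP2K4, a kinase of JNK and p38, rose to 20.4 ± 0.309 FPKM in mimic cells, against 9.89 ± 0.0974 FPKM in scrambled miRNA cells (0.98).

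Of 7 EGR coregulators 5 were tested. With LncND siRNA 2 rose and 3 fell (list median -0.25), against 36.6% higher and 30.3% lower of all genes. Only 1 gene still rose after median-ratio scaling, after quantile normalization and without each siRNA library in turn, except without LncND siRNA replicate 1, where 2 did. NAB2, a corepressor of EGR1 that EGR1 itself induces and that also stands among the targets below, had 17.4 ± 0.394 FPKM in LncND siRNA and 12.7 ± 0.809 FPKM in scrambled siRNA cells (log2 fold change 0.43), while SP1 (-0.44) and HCFC1 (-0.36) fell. With the mimic 1 rose, 1 fell and 3 did not pass (list median 0.06), against 24.6% higher and 38.6% lower of all genes. After either scaling 2 rose, and without miR-143-3p mimic replicate 1, 2 fell. NAB2 fell to 7.98 ± 0.771 FPKM in mimic cells, against 14.1 ± 0.0161 FPKM in scrambled miRNA cells (-0.75), and NAB1 rose (0.25).

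Of 40 genes that textbooks give as targets of AP-1 or EGR1, 22 were tested with LncND siRNA, and 11 rose, 8 fell and 3 missed the threshold, against 36.6% higher and 30.3% lower of all genes (list median 0.13, all genes 0.02). TNFRSF12A, the TWEAK receptor, had 16.7 ± 0.704 FPKM in LncND siRNA and 6.24 ± 0.349 FPKM in scrambled siRNA cells (log2 fold change 1.29). TIMP1, an inhibitor of matrix metalloproteinases (1.27), and CCL2, a chemokine (1.22), rose too. With the mimic 21 were tested, and 4 rose, 14 fell and 3 missed the threshold, against 24.6% higher and 38.6% lower of all genes (list median -0.41, all genes -0.06). CCL2 fell to 0.778 ± 0.0820 FPKM in mimic cells, against 8.65 ± 0.590 FPKM in scrambled miRNA cells (-2.44). TNFRSF12A fell to 8.07 ± 0.0843 FPKM in mimic cells, against 30.8 ± 0.290 FPKM in scrambled miRNA cells (-1.81). VGF, a secreted neuropeptide precursor, fell to 171 ± 2.77 FPKM in mimic cells, against 509 ± 18.3 FPKM in scrambled miRNA cells (-1.57). In scrambled siRNA cells CCL2 had 2.35 FPKM, TNFRSF12A 6.24 FPKM and VGF 211 FPKM, each below its level in scrambled miRNA cells. Controls of genes named from the other lists differed too. In scrambled siRNA and scrambled miRNA cells ATF3 had 4.79 and 10.1 FPKM, MAPK3 23.5 and 36.5 FPKM, and ELK3 19.1 and 17.1 FPKM. These control levels were not tested across the separately made tables. Every gene said to rise or fall from these lists had an adjusted p under 0.05 in limma over all genes tested.

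A few markers of other cells differed in level between the groups, and S100B, CD68 and CLDN4, which reached 1 FPKM, are given by name. The summed level of the 8 Schwann and glial markers was 6.74 to 7.09 FPKM in LncND siRNA and 3.64 to 3.79 FPKM in scrambled siRNA libraries, with 2 of them listed at 0 in every library. The 8 endothelial and blood markers summed to 3.05 to 3.43 FPKM in LncND siRNA and 1.03 to 1.17 FPKM in scrambled siRNA libraries, with 2 listed at 0 in every library. The 7 epithelial markers, 1 of them listed at 0 throughout, summed to 3.75 to 4.20 FPKM in LncND siRNA and 1.29 to 1.40 FPKM in scrambled siRNA libraries. S100B had 5.92 FPKM in LncND siRNA and 3.06 FPKM in scrambled siRNA cells, CD68 had 3.07 FPKM in LncND siRNA and 1.01 FPKM in scrambled siRNA cells, and CLDN4 had 2.17 FPKM in LncND siRNA and 0.621 FPKM in scrambled siRNA cells. With no filter the median log2 fold changes of the 3 lists were 0.010, 0.008 and 0.026. In that fit 2 of 8 Schwann and glial markers were called higher and 0 lower. Of 8 endothelial and blood markers 2 were higher and 1 lower, and of 7 epithelial markers 3 were higher and 0 lower. Over all genes 36.5% passed there. In the miRNA table the Schwann and glial markers summed to 3.52 to 3.61 FPKM in mimic and 4.42 to 5.33 FPKM in scrambled miRNA libraries, and the epithelial markers to 1.51 to 1.59 FPKM in mimic and 1.76 to 1.89 FPKM in scrambled miRNA libraries. The endothelial and blood markers summed to 0.823 to 1.34 FPKM in mimic and 0.779 to 0.804 FPKM in scrambled miRNA libraries. There the 10 mesenchymal neuroblastoma markers summed to 449 to 454 FPKM in mimic and 523 to 532 FPKM in scrambled miRNA libraries. The part of these genes in the results above was not tested.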

How the data were processed

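Poly(A) RNA-seq of 10 SH-SY5Y libraries was analysed from 2 tables of FPKM that the authors deposited, with no other kind of value used. TopHat 1.0.0, Cufflinks and hg19 are named per the submitters' processing notes; the strand setting is not given in the sources, so reads of a gene and an antisense partner cannot be told apart. Status words in place of numbers removed 256 genes of the siRNA table and 246 of the miRNA table, 1304 rows on unplaced or alternative contigs were dropped, and a repeated name kept the row with the highest mean. log2(FPKM + 1) was tested with limma 3.58.1 (R 4.3.3; lmFit, then trended eBayes), 1 table at a time, where a gene averaged 1 FPKM or more, 2-sided, with Benjamini-Hochberg adjustment over all genes tested and a threshold of 0.05. Low genes were read from a fit with no filter. The steps were tested on simulated data. The genes were taken as families and the lists from textbook roles, both with earlier results of these data known; from each list at most the 3 largest changes in a comparison are named, and 1 list gene is not reported here. Depth was estimated from FPKM steps of 344 olfactory receptor genes, by a way settled after the low values were seen, is approximate, and entered no test. At the estimated depths 44.4% (scrambled siRNA replicate 3) to 100.0% (miR-143-3p mimic replicate 2) of the values used fell near whole fragments. Replicate numbers were not taken as pairs. Alternatives were another pseudocount, no filter, median-ratio scaling, quantile normalization, a replicate block and leaving out each library.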

Additional observations from a re-analysis of the deposited data

How the results depend on the processing

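With no filter on low values, 1 of the 10 genes passed with LncND siRNA, against 2 with the filter, and 3 passed with the mimic, against 5, where 36.5% and 22.7% of all genes passed, because JUND, JUN and JUNB lost their calls as given in the report. EGR1 with the mimic, JUNB with LncND siRNA and the difference of effects of JUN, JUNB, JUND and EGR1 passed under every alternative run, and no direction turned. FOS with the mimic met the filter only through the scrambled miRNA libraries, so the alternatives that keep the filter are no check on it. With no filter it passed (limma, adjusted p = 0.0196). Replicate numbers were examined as possible pairs. The deviations of same-numbered libraries correlated at -0.053 to 0.207 with LncND siRNA and at 0.135 with the mimic, and the numbers were not taken as pairs. With 2 libraries a group the deviations mirror each other, so the mimic's value cannot decide whether they pair. With a replicate block 8022 genes passed with LncND siRNA, against 8431, and 8247 with the mimic, against 7947, and no call of these 10 genes changed. Rescaled splits with LncND siRNA stand in the report. Genes called with the mimic split into 3094 higher and 4853 lower, 3971 and 4032 after median-ratio scaling, and 4141 and 3860 after quantile normalization. The difference of effects split into 4699 and 2717, 3519 and 3985, and 3464 and 4174 in the same order, as scaling moved its median over all genes by -0.114 and -0.115. FPKM carries no depth. Of the genes under 1 FPKM, FOSB, EGR2 and EGR3 rest on few estimated fragments, whereas FOSL2 had about 103 to 134 in siRNA libraries. An interval that holds 0 does not show that a gene was unchanged.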
